A study of Mus musculus with 7 samples.

Results

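The data concern 9 genes that mark resting microglia, P2ry12, Gpr34, Cx3cr1, Csf1r, Siglech, Fcrls, Tmem119, Sparc and Olfml3, taken by symbol from gene lists of 27998 (CD4 libraries) and 28692 genes (CD45 libraries); all 9 were found in each of the 7 single-cell RNA libraries of the series. The libraries held cells of the central nervous system of B6 mice with experimental autoimmune encephalomyelitis (EAE) at its peak, a T cell disease raised with the myelin peptide MOG35-55. Lag3KO_CD4 (n = 2) and WT_CD4 (n = 2) were enriched with beads for CD4, and Lag3KO_CD45 (n = 1) and WT_CD45 (n = 2) for CD45. Lag3KO mice carry the genotype label Lag3Floxed and WT mice Lag3wt, in groups of 5 with matched age, sex and disease score, and the labels name no Cre line. LAG3 is an inhibitory receptor of lymphocytes that binds MHC class II. The labels tie no library to a mouse, so p-values measure the spread between libraries, which may be technical. The source label of the CD4 libraries is CD4 T cells, so any microglia in them are cells carried through that selection.

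Microglia are the macrophages that settle in the brain before birth and renew there, apart from blood monocytes. At rest they survey the tissue with moving processes, guided by purinergic and chemokine receptors, and they depend on CSF1 receptor signalling and on TGF beta. In EAE, monocytes enter the tissue and become macrophages that share many surface molecules with microglia, and microglia in inflamed tissue are known to lower parts of the resting programme.

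Cells were classed by complement C1q and by lysozyme 2 (Lyz2), an enzyme of monocytes and their descendants, and none of the 9 genes took part. Of 13411 cells kept, 377 were C1q-positive and Lyz2-low: C1qa, C1qb and C1qc together made up 10 or more per 10000 UMIs (unique molecular identifiers, which count captured transcripts) with at least 3 UMIs, and Lyz2 was under 20 per 10000. Such cells numbered 107 and 98 in Lag3KO_CD4, 55 and 45 in WT_CD4, 31 in Lag3KO_CD45 and 17 and 24 in WT_CD45. Lyz2-high macrophages, with Lyz2 at 50 or more per 10000, numbered 1792 C1q-positive and 1188 C1q-negative cells. The class is a range: 26 of its 377 cells lay within 5 of the Lyz2 cut, and 93 other C1q-positive cells lay between 20 and 50. Of the 377 cells, 345 fell in clusters with microglia markers and 32 did not, 28 of these 32 in the CD45 libraries. Of 16 microglia markers that are not among the 9 genes, 16 had UMIs in the C1q-positive Lyz2-low cells of 6 libraries. In those of WT_CD45 1 it was 15, with Sall1 at 0. The 16 include C1qa, C1qb and C1qc, which form the class. Detection alone does not set the class apart, since all 16 also had UMIs in C1q-positive Lyz2-high macrophages of the CD45 libraries.

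The comparisons below turn most on Fcrls, by genotype, and on Siglech, by cell class, so their promoter windows are shown beside that of P2ry12, which had the second smallest p of the members by genotype in the CD4 libraries and did not pass, 250 bases before to 50 bases after the start of the gene in RefSeq GRCm38.p6. Capitals mark AGGAAG or its reverse CTTCCT, a core that ETS factors such as PU.1 bind; both strands were searched and no match overlapped another.
Fcrls, chr3:87263475-87263774, minus strand: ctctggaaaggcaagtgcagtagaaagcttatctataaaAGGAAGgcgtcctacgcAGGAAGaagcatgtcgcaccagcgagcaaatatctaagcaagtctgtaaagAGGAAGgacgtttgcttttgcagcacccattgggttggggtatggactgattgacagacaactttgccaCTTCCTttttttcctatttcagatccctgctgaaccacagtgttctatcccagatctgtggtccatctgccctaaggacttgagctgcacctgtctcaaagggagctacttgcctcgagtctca
P2ry12, chr3:59262936-59263235, minus strand: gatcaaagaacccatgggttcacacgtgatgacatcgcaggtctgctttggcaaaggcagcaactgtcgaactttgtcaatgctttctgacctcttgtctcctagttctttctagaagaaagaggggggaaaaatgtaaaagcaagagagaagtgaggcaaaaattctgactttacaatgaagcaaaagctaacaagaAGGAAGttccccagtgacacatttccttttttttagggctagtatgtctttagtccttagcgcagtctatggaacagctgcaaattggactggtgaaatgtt
Siglech, chr7:55767934-55768233, plus strand: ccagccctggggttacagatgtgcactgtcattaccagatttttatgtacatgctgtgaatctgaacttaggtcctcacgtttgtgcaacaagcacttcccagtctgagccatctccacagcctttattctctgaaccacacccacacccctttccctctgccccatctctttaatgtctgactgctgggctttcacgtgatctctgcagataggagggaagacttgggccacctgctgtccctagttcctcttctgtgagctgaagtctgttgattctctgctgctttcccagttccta
Among these windows the Fcrls window held 4 matches, the P2ry12 window 1 and the Siglech window 0. Of the 6 members with a window in the table, 3 held the motif, the third being Olfml3, beside 35.4% of all 32851 windows of 300 bases. The match is a description of the letters and says nothing of binding.

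Libraries held 4585251 to 18940186 UMIs in 1428 to 2517 barcodes, and the C1q-positive Lyz2-low cells had median depths of 2372 to 3209 UMIs after CD4 and 4627 to 5810.5 UMIs after CD45 enrichment. Any 2 libraries shared 0 to 12 barcodes. Lag3, the targeted gene, had 1 and 0 UMIs in the whole Lag3KO_CD4 libraries and 289 and 107 in WT_CD4. In the CD45 libraries it had 2 UMIs in Lag3KO_CD45, against 304 in WT_CD45 1, while the library labelled WT_CD45 2 had 4. That last count goes against its label, so values are also given without it; the counts of the other 6 libraries go with theirs. All 4 CD4 libraries held Xist (4252 to 5761 UMIs) and the 3 CD45 libraries 0 UMIs of it, so sort, sex and processing cannot be told apart. Haemoglobin transcripts stood apart in WT_CD4 2 (60174 UMIs) and Lag3KO_CD4 2 (17158 UMIs), against at most 32 elsewhere.

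All 9 genes were higher in C1q-positive Lyz2-low cells than in Lyz2-high macrophages of the same libraries, by 1.46 (Csf1r) to 5.01 (Sparc) on the log2 scale. The comparison asks how far this expression separates microglia-like cells from the macrophages beside them, over 7 libraries with the library as a block (edgeR's quasi-likelihood test on summed counts, Benjamini-Hochberg adjusted p under 0.05). Of 3929 genes tested, 16.5% passed as higher and 17.1% as lower, and 9 of 9 members passed as higher. The median difference was 4.08 over the 9 genes and 0.01 over all genes tested. Levels below are counts per 1000000 UMIs of the class in a library (CPM). The Lyz2 cut kept part of the CD45 cluster with microglia markers out of the C1q-positive Lyz2-low class. In Lag3KO_CD45, 41 of its cells had Lyz2 at 20 or more per 10000, and their 9 genes summed to 2831 CPM. The 24 cells of the class in that cluster held 5936 CPM. In the library labelled WT_CD45 2 it was 14 cells at 4143 CPM, against 13 at 7032 CPM. The part of this cut in the differences above was not tested.

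Among the receptors, P2ry12, the ADP receptor that steers microglial processes toward injury, had 398 and 471 CPM in the C1q-positive Lyz2-low cells of Lag3KO_CD4, 717 and 1046 in WT_CD4, 234 in Lag3KO_CD45 and 129 and 272 in WT_CD45. Lyz2-high macrophages had 4.91 to 48.4 CPM of P2ry12 when C1q-positive and 8.16 to 40.9 when C1q-negative, so every Lyz2-high value lay under every C1q-positive Lyz2-low value (log2 difference 3.88 ± 0.24 SE, edgeR adjusted p = 4.3e-07). Gpr34, a receptor for lysophosphatidylserine, had 66.4 and 174 CPM in Lag3KO_CD4, 221 and 381 in WT_CD4, 150.3 in Lag3KO_CD45 and 77.7 and 175 in WT_CD45. Its Lyz2-high levels were 0 to 29.0 CPM, again with no overlap (4.10 ± 0.29, edgeR adjusted p = 1.0e-06).

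Cx3cr1, the fractalkine receptor, had 583 and 474 CPM in the C1q-positive Lyz2-low cells of Lag3KO_CD4, 573 and 822 in WT_CD4, 546 in Lag3KO_CD45 and 371 and 357 in WT_CD45. It reached 216 CPM in the C1q-positive Lyz2-high macrophages of the CD45 libraries and 44.3 in those of the CD4 libraries (log2 difference 2.53 ± 0.40 SE, edgeR adjusted p = 3.5e-04). Csf1r, the receptor for CSF1 and IL-34 on which all these macrophages depend, had 1469 and 1892 CPM in Lag3KO_CD4, 1844 and 2503 in WT_CD4, 1108 in Lag3KO_CD45 and 725 and 907 in WT_CD45. Its Lyz2-high levels were the nearest of the 9 genes, 523 to 636 CPM in C1q-positive and 262 to 457 in C1q-negative macrophages (1.46 ± 0.24, edgeR adjusted p = 5.0e-04). Both receptors still did not overlap between the classes.

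Siglech, a sialic acid-binding lectin that signals through DAP12, had 188 and 308 CPM in the C1q-positive Lyz2-low cells of Lag3KO_CD4, 397 and 456 in WT_CD4, 184 in Lag3KO_CD45 and 86.3 and 224 in WT_CD45. Lyz2-high macrophages had at most 23.1 CPM of Siglech, and 0 UMIs in each CD4 profile of at least 10 cells (log2 difference 4.08 ± 0.41 SE, edgeR adjusted p = 1.2e-05). Fcrls, an Fc receptor-like molecule of mouse microglia, had 26.0 and 39.5 CPM in Lag3KO_CD4, 299.7 and 665 in WT_CD4, 55.7 in Lag3KO_CD45 and 51.8 and 72.5 in WT_CD45. It was the only member whose classes overlapped, since the C1q-positive Lyz2-high macrophages of WT_CD4 1 held 48.4 CPM of Fcrls and the Lag3KO_CD4 cells less (3.57 ± 0.38, edgeR adjusted p = 1.9e-05).

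Tmem119, a transmembrane protein used as a microglia marker, had 1166 and 1292 CPM in the C1q-positive Lyz2-low cells of Lag3KO_CD4, 1335 and 1718 in WT_CD4, 562 in Lag3KO_CD45 and 379.8 and 459 in WT_CD45, against at most 77.6 in Lyz2-high macrophages (log2 difference 4.30 ± 0.37 SE, edgeR adjusted p = 3.8e-06). Of the secreted proteins, Sparc, a glycoprotein that binds matrix collagen, had 964 and 1132 CPM in Lag3KO_CD4, 1388 and 1800.5 in WT_CD4, 1180.1 in Lag3KO_CD45 and 647 and 1009.6 in WT_CD45. Its Lyz2-high levels were 0 to 119 CPM (5.01 ± 0.48, edgeR adjusted p = 8.2e-06). Olfml3, a glycoprotein with an olfactomedin domain, had 909 and 1324 CPM in Lag3KO_CD4, 1303 and 1905 in WT_CD4, 768 in Lag3KO_CD45 and 406 and 472 in WT_CD45, against at most 94.3 in Lyz2-high macrophages (4.23 ± 0.45, edgeR adjusted p = 1.7e-05). None of these 3 genes overlapped between the classes, as held for every member but Fcrls. WT_CD4 2 was the highest library for each of them, and for every other member too.

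Without the library labelled WT_CD45 2 the same 9 members passed, with differences of 1.59 (Csf1r) to 5.19 (Sparc). The CD45 libraries had higher levels of several members in classes where these genes were low in the CD4 libraries. In T cells the summed level of the 9 genes was 19.5 to 418 CPM over 7 libraries with a median of 26.7, and the CD45 libraries made up the upper end. In the C1q-positive Lyz2-low cells the sum was 2874 to 11296 CPM.

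**Figure D1:**
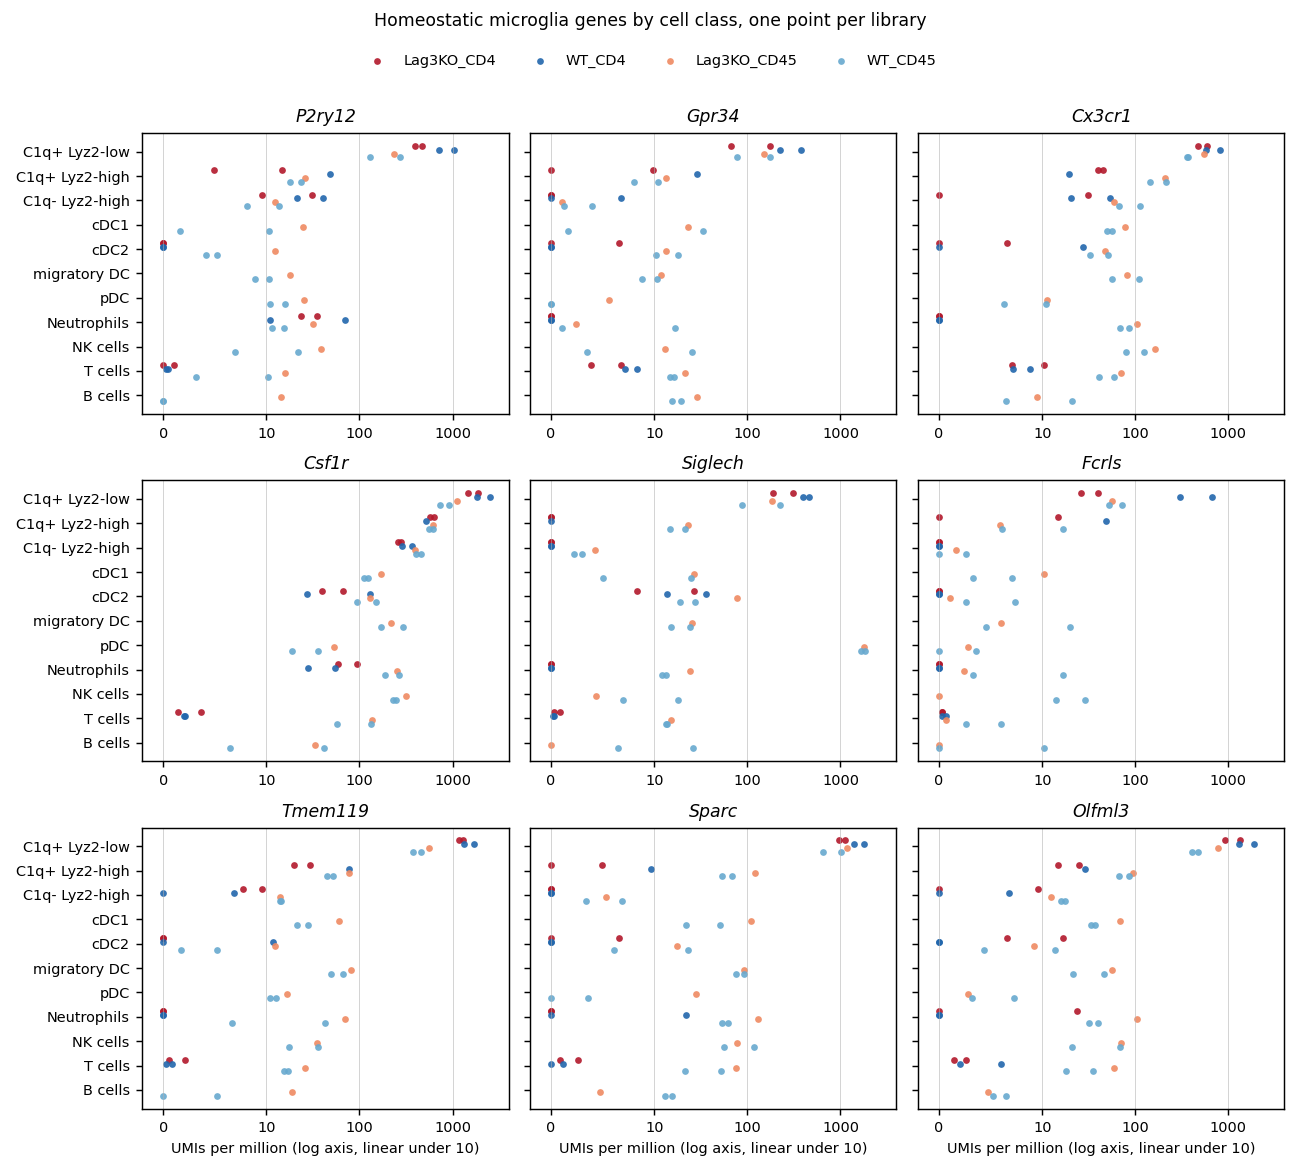
CPM of each of the 9 genes (horizontal log axis, linear under 10) in 11 cell classes (vertical), one point for each library that has 10 or more cells of the class, coloured by group. C1q-positive Lyz2-low cells reach the highest level of every gene except Siglech, though for Fcrls the Lag3KO_CD4 points (26.0 and 39.5 CPM) lie left of the WT_CD4 1 point of C1q-positive Lyz2-high macrophages (48.4 CPM); for Siglech, plasmacytoid dendritic cells reach 1665 to 1856 CPM.

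Set against all other classes in each sort, C1q-positive Lyz2-low cells ranked first for 8 of the 9 genes in the CD45 libraries (11 classes) and for 9 of 9 in the CD4 libraries (6 classes). Siglech was the exception. Plasmacytoid dendritic cells, the interferon-producing cells that Siglech also marks in mice, held 1665, 1804 and 1856 CPM of Siglech in the CD45 libraries, against 86.3 to 224 CPM in C1q-positive Lyz2-low cells of those libraries. Only the CD45 libraries had 10 or more plasmacytoid dendritic cells, and in them 19.9% of 3564 genes passed as higher in C1q-positive Lyz2-low cells and 16.5% as lower. Siglech passed as lower (log2 difference -3.24 ± 0.18 SE, edgeR adjusted p = 5.5e-11). The other 8 members passed as higher, from 3.69 (P2ry12) to 7.04 (Olfml3).

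Below first place the order differed by gene. Csf1r and Cx3cr1 came next in C1q-positive Lyz2-high macrophages, in both sorts, and the first 2 classes did not overlap. For Sparc and Tmem119 in the CD45 libraries the next class was migratory dendritic cells, at 75.5 to 92.8 CPM for Sparc and 49.8 to 80.3 for Tmem119. An unnamed CD45 cluster led by Ace and Ear2, genes of patrolling monocytes, held 589.9 to 688 CPM of Csf1r and 150.2 to 229.9 of Cx3cr1 but at most 13.1 of P2ry12 and of Gpr34. Barcodes with both T cell and microglial transcripts, set apart before the comparison, held 94.4 to 115 CPM of P2ry12, 198 to 245 of Tmem119 and 337 to 535 of Sparc in the CD45 libraries.

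Single cells showed the same order once depth was made equal. With each cell thinned to 1000 UMIs, the median number of the 9 genes detected per C1q-positive Lyz2-low cell was 3.5 and 4.0 in Lag3KO_CD4, 5.0 and 5.0 in WT_CD4, 4.0 in Lag3KO_CD45 and 2.0 and 2.5 in WT_CD45. It was 1.0 for C1q-positive Lyz2-high macrophages in each of the 6 libraries with at least 10 of them, and 0 for C1q-negative ones and for T cells in all 7. The library medians of C1q-positive Lyz2-low cells thus lay above these, though single cells overlapped. After thinning, none of the 9 genes was found in 23.5% and 25.0% of C1q-positive Lyz2-low cells in WT_CD45, and in 0 to 6.45% elsewhere. The shallower cells left out numbered 19 and 7 in Lag3KO_CD4, 9 and 10 in WT_CD4 and 0 in the CD45 libraries.

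**Figure D2:**
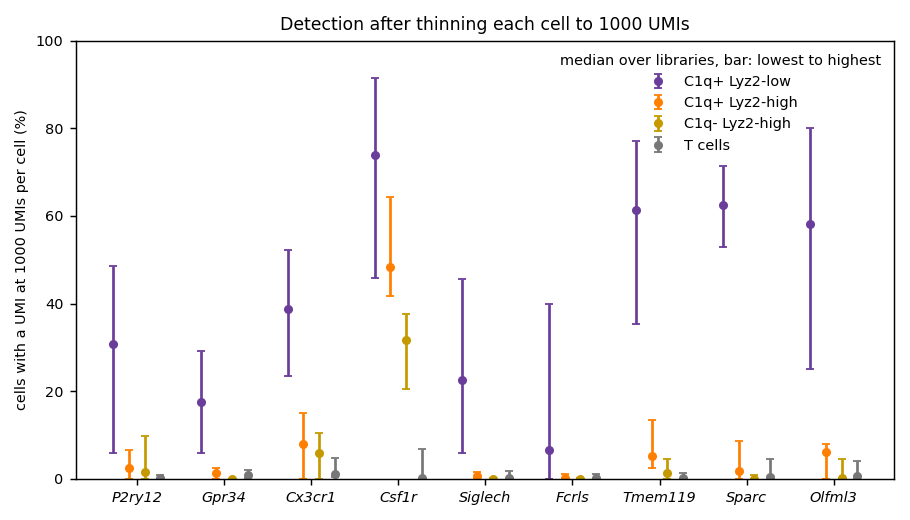
Share of cells (percent, vertical) with a UMI of each gene after thinning to 1000 UMIs per cell, as the median over libraries with bars to the lowest and highest library. Csf1r was found in a median of 73.9% of C1q-positive Lyz2-low cells and 48.2% of C1q-positive Lyz2-high macrophages, and Sparc in 62.5% and 1.82%.

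T cells, where the genes were low, gave thinned shares of at most 6.75% (Csf1r) and for Fcrls at most 1.19%, at median depths of 2025 to 3627 UMIs per cell. Unthinned they reached 22.4% for Csf1r and 2.38% for Fcrls. Their median thinned share was highest for Cx3cr1 (0.984%) and Gpr34 (0.848%). The thinned shares in C1q-positive Lyz2-low cells were 5.88 to 48.6% for P2ry12, 23.5 to 52.2% for Cx3cr1 and 35.3 to 77.1% for Tmem119, above every T cell value of the same gene. Unthinned, 41.2 to 68.4% of these cells had a P2ry12 UMI and 58.8 to 93.9% a Tmem119 UMI. Fcrls was the weakest, at 0 to 40% thinned; its 0 of 17 thinned cells in WT_CD45 1 allows a share of cells with a UMI of up to 17.6% (3 cells, counting error alone), and unthinned 23.5% of those cells had one.

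The 9 genes moved with a wider group. Of 30 further homeostatic microglia genes 27 were tested and 27 passed as higher than in Lyz2-high macrophages, with a median log2 difference of 2.33 beside 0.01 over all genes; of all genes tested 16.5% passed as higher and 17.1% as lower, which holds for the next lists too. Cst3, the protease inhibitor cystatin C, rose by 2.11 ± 0.15 (SE, edgeR adjusted p = 8.8e-07). Of 20 disease-associated microglia genes 16 were tested, 7 passing as higher and 8 as lower (median -0.34). Cst7, a cystatin, rose by 2.99 ± 0.26 and Ctsl, cathepsin L, by 2.23 ± 0.20, while Ccl6, a chemokine, fell by 2.83 (SE 0.25) and Spp1, osteopontin, fell by 2.19 (SE 0.28), each passing edgeR's threshold.

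Of 21 genes for partners of the CSF1, fractalkine and TGF beta receptors 13 were tested, 6 passing as higher and 3 as lower (median 0.09). Csf1, which is also on the disease-associated list and encodes a ligand of the Csf1r product, rose by 2.80 ± 0.43 in C1q-positive Lyz2-low cells, to 6.51 to 66.5 CPM. Its lowest level rests on 1 UMI, in WT_CD4 1. Smad7, an inhibitor of TGF beta signalling, rose by 2.22 ± 0.28. Tgfb1, the ligand itself, fell by 0.60 (SE 0.13), and Spi1, which encodes PU.1, fell by 0.48 (SE 0.11). All 14 monocyte markers tested passed as lower (median -4.35), and of 5 tested markers of border-associated macrophages 3 did (median -2.79). Lyz2 was used to form the classes, so monocyte genes that follow it are a description.

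Across 56 class-by-library profiles of 11 classes, the 10 genes most like the mean of the 9, by Pearson's r of log2(CPM + 10), included Crybb1 (0.95), Hpgds (0.94), Slco2b1 (0.94), Tspan7 (0.94), Slc1a3 (0.93), Pmp22 (0.93), Adgrg1 (0.93), Gas6 (0.92) and Ctsf (0.92). Each member was also set against the mean of the other 8. Tmem119 (0.96), Olfml3 (0.95) and Sparc (0.93) followed it most closely. Csf1r (0.73) and Siglech (0.50) followed it least, the first with substantial levels in all Lyz2-high macrophages and the second in plasmacytoid dendritic cells. The profiles share libraries and differ in depth, and these correlations are descriptions without a test.

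The C1q-positive Lyz2-low cells of the CD4 libraries fell mostly in 2 clusters, one of 178 barcodes and one of 150 that was led by Ccl12 and had the higher score of cell cycle genes and a median of 1437 UMIs, against 3394.5 in the other. In the second cluster P2ry12 was at 279.6 and 290.0 CPM in Lag3KO_CD4 and 290.4 and 382 in WT_CD4; in the first it was at 479 and 621 in Lag3KO_CD4 and 874 and 1296 in WT_CD4. Cx3cr1 was at 477 and 284 CPM in Lag3KO_CD4 and 242 and 246 in WT_CD4 in the second cluster, and at 663 and 630.4 in Lag3KO_CD4 and 695 and 1039 in WT_CD4 in the first. Olfml3 lay closer, at 839 and 1236 CPM in Lag3KO_CD4 and 1186 and 1500.4 in WT_CD4 in the second cluster, and at 981 and 1434 in Lag3KO_CD4 and 1346 and 2058 in WT_CD4 in the first. Each of these genes was lower in the second cluster in 4 of 4 libraries. These genes, like the other members, were left out of the genes used for clustering. Their levels by cluster were not tested and are a description.

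The share of C1q-positive Lyz2-low cells was 7.42% and 5.50% of cells in Lag3KO_CD4, against 2.92% and 3.30% in WT_CD4, and 1.26% in Lag3KO_CD45, against 0.746% in WT_CD45 1; the library labelled WT_CD45 2 held 1.09%. Each Lag3KO library was above the libraries labelled WT of its sort. The mean difference within sort was 1.84 percentage points, and a two-sided exact permutation within sort over 18 arrangements gave p = 0.111, where the smallest possible is 0.0556. Without the library labelled WT_CD45 2 the difference was 1.93 points (exact permutation p = 0.167). The difference was 4.26 points (exact permutation p = 0.333) as a share of barcodes in monocyte, macrophage, microglia and unnamed clusters. That pool includes barcodes with T cell transcripts, and bead selection can set such shares.

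Within C1q-positive Lyz2-low cells, Lag3KO and WT differed in few genes, and Fcrls was the one member among them. Lag3 itself had 1 and 0 UMIs in these cells of Lag3KO_CD4, against 45 and 43 in WT_CD4, and 0 in Lag3KO_CD45, against 8 in WT_CD45 1, while the library labelled WT_CD45 2 had 0 there. Over both sorts, with the sort as a term, 0.18% of 2784 genes passed, and 1 of 9 members did. In the CD4 libraries, fitted together with the CD45 ones so that all 7 share an estimate of the spread, 0.232% of 3445 genes passed, and again 1 of 9 members. In the CD45 libraries, where Lag3KO is 1 library assumed to vary like the others, 0.145% of the 3445 passed, and 0 of 9 members (edgeR; 1 of 9 members, Olfml3, had an unadjusted p under 0.05, and by DESeq2 0 genes passed there).

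Fcrls fell to 26.0 and 39.5 CPM in Lag3KO_CD4, against 299.7 and 665 CPM in WT_CD4, on 9, 15, 46 and 89 UMIs. The 2 groups were far apart: 32.7 ± 9.55 CPM in Lag3KO_CD4 and 482 ± 258 CPM in WT_CD4 (SD, n = 2 each), a log2 difference of -3.83 ± 0.35 (SE, edgeR adjusted p = 1.3e-07). It passed in each of the 15 alternatives for the CD4 libraries that did not select cells by cluster, with values of -4.28 to -3.15. Within the cluster of 178 barcodes Fcrls was at 41.5 and 60.7 CPM in Lag3KO_CD4, against 329.8 and 802 in WT_CD4, and within the cluster of 150 at 0 and 12.6, against 218 and 300.1.

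Single cells gave the same picture for Fcrls: after thinning, 3.41% and 6.59% of cells had a UMI in Lag3KO_CD4 (95% exact Clopper-Pearson intervals 0.709 to 9.64 and 2.46 to 13.8), against 21.7% and 40% in WT_CD4 (10.9 to 36.4 and 23.9 to 57.9); the intervals cover counting error only. After CD45 enrichment the Fcrls levels of 55.7 CPM in Lag3KO_CD45 and 51.8 and 72.5 CPM in WT_CD45 overlapped and all lay nearer to Lag3KO_CD4 than to WT_CD4 (log2 difference -0.26 ± 0.66, edgeR adjusted p = 0.967). The difference between the sorts was itself tested: 0.029% of 3445 genes passed, 0 of 9 members did, and Fcrls stood at -3.58 ± 0.85 (edgeR adjusted p = 0.119). Fcrls passed that test in 6 of 15 alternatives, with adjusted p of 0.00657 to 1.00, and Sparc in 1 (Lyz2 under 10 per 10000, -1.57, edgeR adjusted p = 0.0317). Over both sorts Fcrls fell by 3.17 on the log2 scale (SE 0.48, edgeR adjusted p = 0.0071). That pooled call was lost by DESeq2 (-2.49, adjusted p = 0.471) and without Lag3KO_CD4 1 (-2.62, edgeR adjusted p = 0.151), Lag3KO_CD4 2 (-2.85, 0.212) or WT_CD4 2 (-2.38, 0.254), and it was kept without the library labelled WT_CD45 2 (-3.20, 0.0159).

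**Figure D3:**
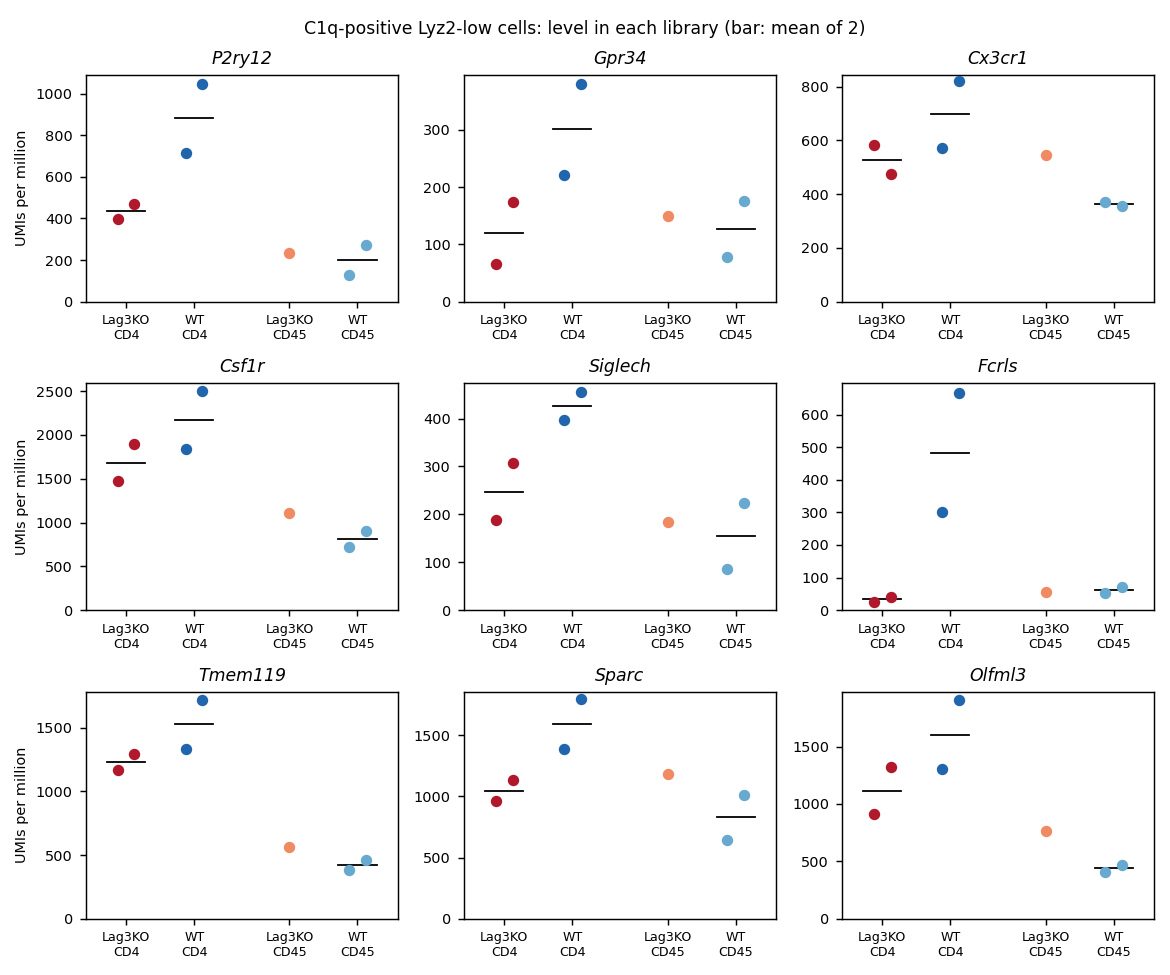
CPM of each gene (vertical, from 0) in C1q-positive Lyz2-low cells, one point per library in the 4 groups, with a bar at the mean of 2 libraries. Fcrls stands out, at 26.0 and 39.5 CPM in Lag3KO_CD4, against 299.7 and 665 in WT_CD4, and at most 72.5 in the CD45 libraries.

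The other 8 members had fitted differences below 0 between Lag3KO_CD4 and WT_CD4, and none passed the threshold there. P2ry12 had 398 and 471 CPM against 717 and 1046 (log2 difference -1.02 ± 0.24, edgeR adjusted p = 0.0782), and Gpr34 had 66.4 and 174 against 221 and 381 (-1.30 ± 0.35, edgeR adjusted p = 0.214), without overlap between the groups in either. Siglech (-0.78 ± 0.28), Sparc (-0.61 ± 0.21) and Tmem119 (-0.32 ± 0.19) did not overlap either, while Olfml3 (-0.53 ± 0.21), Cx3cr1 (-0.40 ± 0.22) and Csf1r (-0.38 ± 0.20) did. That makes 6 of 9 members without overlap, Fcrls included, each with both Lag3KO_CD4 values below both WT_CD4 values; 17.7% of the 3445 genes tested were placed in this way. With 2 libraries a group this is a description and not a test. The median of the 9 was -0.61, beside -5.2e-04 over all genes, of which 49.6% were above 0.

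Some alternatives moved P2ry12 and Gpr34 past the threshold in the CD4 libraries. P2ry12 passed without the library labelled WT_CD45 2 (-1.02, edgeR adjusted p = 0.0114) and in 4 others of the 15 alternatives that did not select cells by cluster, over which its adjusted p was 7.97e-04 to 1.00. Gpr34 passed in 3 of 15, with adjusted p of 0.00199 to 1.00. After the data were seen, the comparison was also limited to cells of the microglia-like clusters, which leaves 105 and 96 cells in Lag3KO_CD4 and 55 and 45 in WT_CD4. There the fitted differences were -0.99 ± 0.20 for P2ry12 and -1.27 ± 0.29 for Gpr34. The members were left out of the clustering, but this choice followed a look at the data, so both values are a description.

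Of the 9 fitted CD45 differences 8 were above 0, beside 47.0% of all genes, and none passed. Without the library labelled WT_CD45 2, which leaves 1 library on each side, 9 of 9 were above 0, from 0.079 (Fcrls) to 1.06 (Siglech), with P2ry12 at 0.83, Olfml3 at 0.90 and Cx3cr1 at 0.53, and none passed. With it, Olfml3 was at 768 CPM in Lag3KO_CD45, against 406 and 472 in WT_CD45 (log2 difference 0.74 ± 0.29, edgeR adjusted p = 0.554), and Cx3cr1 at 546, against 371 and 357 (0.53 ± 0.29, edgeR adjusted p = 0.729). P2ry12 (0.10 ± 0.38), Gpr34 (0.11 ± 0.52) and Siglech (0.10 ± 0.44) overlapped between the groups. These cells were less uniform: 24 of 31 were in the microglia-like cluster in Lag3KO_CD45, against 7 of 17 and 13 of 24 in WT_CD45. The 16 microglia markers summed to 50451 CPM in Lag3KO_CD45, against 35131 and 41789 in WT_CD45, and the 14 monocyte markers to 3073 CPM, against 3984 and 4359; their part in these values was not tested.

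Within that cluster the levels in the CD45 libraries were nearer to those of the CD4 libraries and their order changed. P2ry12 was at 300.2 CPM in Lag3KO_CD45, against 435 and 470.5 in WT_CD45, and Siglech at 225, against 327 and 445. Tmem119 was at 683, against 1379 and 776, and Fcrls at 75.0, against 36.3 and 153. With WT_CD45 1 left out of that fit for having 7 cells, so that the WT side was the library labelled WT_CD45 2 alone, 7 of the 9 fitted differences were below 0. Over both sorts the fitted log2 differences in this choice of cells were -3.30 for Fcrls, -0.95 for P2ry12, -1.20 for Gpr34 and -0.85 for Siglech. It was made after the data were seen and leaves out 28 CD45 cells, so these values too are given as a description.

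**Figure D4:**
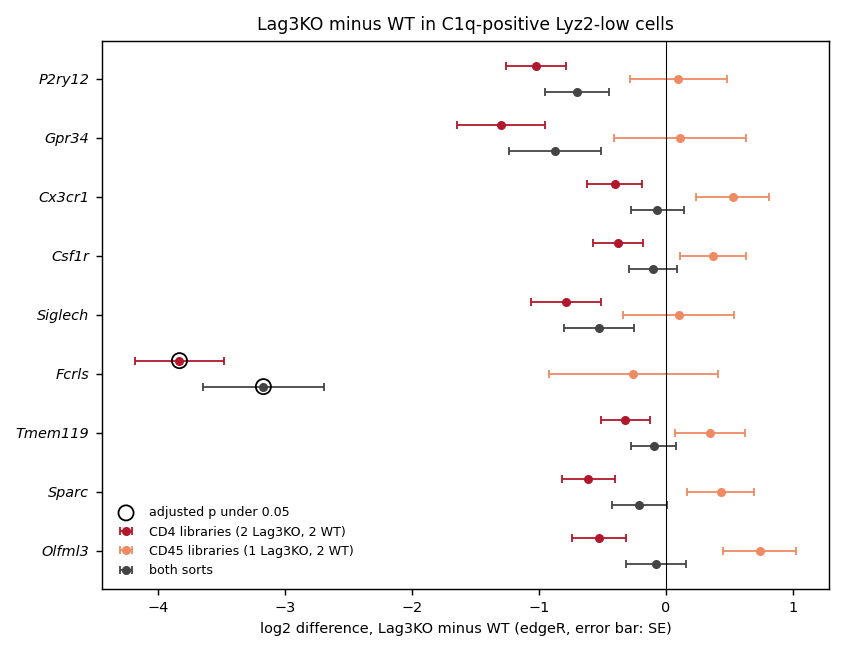
Log2 difference, Lag3KO minus WT, with its standard error (horizontal) for each of the 9 genes in C1q-positive Lyz2-low cells, for the CD4 libraries, the CD45 libraries and both sorts; a ring marks an edgeR adjusted p under 0.05. Fcrls is ringed at -3.83 (CD4) and -3.17 (both sorts), and all 9 CD4 values lie below 0.

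Other values moved with the genotype in the C1q-positive Lyz2-low cells of the CD4 libraries, and their part in the members' differences was not tested. The 16 microglia markers summed to 67548 and 72353 CPM in Lag3KO_CD4, against 81119 and 89791 in WT_CD4, with 16 of 16 detected in each. The 14 monocyte markers summed to 863 and 947 CPM, against 665 and 697, with 12 detected in each Lag3KO library and 6 in each WT library. These numbers detected were not compared at equal depth. The summed cells held 346537 and 379997 UMIs in Lag3KO_CD4, against 153502 and 133855 in WT_CD4. The 12 border-associated macrophage markers summed to 139 to 147 CPM, against 179 to 215. The 6 B cell markers summed to 11.5 to 31.6, against 45.6 to 52.3, with only 1 of them detected in each library. The 10 neutrophil markers summed to 162 to 189 CPM, against 217 to 228. For the 8 markers of migratory dendritic cells it was 28.9 to 103, against 111 to 112. The 10 plasmacytoid dendritic cell markers summed to 311 to 361 CPM in Lag3KO_CD4, against 169 to 194 in WT_CD4, and the 10 markers of cDC2 or monocyte-derived dendritic cells to 43.3 to 116, against 22.4 to 39.1. The 7 T cell markers overlapped, at 55.3 to 101 CPM, against 29.9 to 65.1. Median depth was 2728 and 3209 UMIs per cell, against 2372 and 2744. With the 2 haemoglobin libraries as a term the both-sort difference of Fcrls was -3.16 (edgeR adjusted p = 0.0028).

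Among the other homeostatic microglia genes, of 27 tested in the CD4 libraries 25 were below 0, 0 passed in either direction, and their median was -0.31. Of the disease-associated genes 8 of 15 tested were above 0 (median 0.02), and of the receptor partners 3 of 13 (median -0.15), and 0 of either list passed. Of the CD45 values for the same list, 20 of the 27 homeostatic genes were above 0 (median 0.34) and 0 passed.

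Genes outside the lists that passed in the CD4 libraries were Lag3, Tpm3-rs7, Tpm3, Hebp1, Rnaset2b, Ccl2 and Ly6a, named after their values were seen. Fcrls lies on chromosome 3 of GRCm38 (87250758 to 87263738, minus strand), and Tpm3 (90072649 to 90100902, plus strand) starts 2.81 megabases beyond its end. P2ry12 (59216272 to 59262871, minus strand) and Olfml3 (103722222 to 103738001, minus strand) are on the same chromosome. Tpm3 fell to 75.0 and 86.8 CPM in Lag3KO_CD4, against 267 and 344 in WT_CD4 (log2 difference -1.91 ± 0.27, edgeR adjusted p = 1.95e-04). Tpm3-rs7, a near copy of it on chromosome 14, had 315 and 366 CPM, against 6.51 and 14.9, and since 3′ reads can be split between such copies both values are uncertain. Ccl2, a chemokine that attracts monocytes, rose to 1977 and 1968 CPM, against 847 and 934.

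In Lyz2-high macrophages the members gave little to compare by genotype, since P2ry12, Gpr34, Siglech and Fcrls did not reach the level needed for a test. None of the 4056 genes tested passed (0%; 119 had an unadjusted p under 0.05, and DESeq2 gave 0). Sparc had the smallest p of the 5 members tested (log2 difference 0.98 ± 0.18, edgeR adjusted p = 0.493). Its level in C1q-positive Lyz2-high macrophages was 4.91 and 0 CPM in Lag3KO_CD4, against 9.68 in WT_CD4 1, and 119 in Lag3KO_CD45, against 53.0 and 68.1 in WT_CD45. Without Lag3KO_CD45 1 the fitted difference turned to -0.39, so its direction rests on that library.

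Whether the genotype difference of a gene was larger in C1q-positive Lyz2-low cells than in Lyz2-high macrophages was tested in 1 fit over both classes. None of 3929 genes passed (0%; 157 had an unadjusted p under 0.05, and DESeq2 gave 0), and the 9 members ran from -0.50 to 0.42. This does not show that the classes were alike.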

How the data were processed

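The authors deposited whole-number UMI counts per gene and barcode from 10x 3′ v2 libraries, with no normalization; Cell Ranger, Seurat, GRCm38 and mm10 are named per the submitters' processing notes, and Cell Ranger 3.0.2 per the file headers of the CD4 libraries. The alignment settings were not given in the sources used here. The genes and lists were chosen with earlier results of these data known.

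From the deposited counts, barcodes with at least 200 genes and at most 10% mitochondrial UMIs were kept, doublets were removed at 0.8% per 1000 barcodes, and cells were clustered within each sort (2000 variable genes, 30 components, 15 neighbours, leidenalg 0.10.2 at resolution 1). Barcodes outside T cell and natural killer cell clusters that held T cell transcripts (at least 5 per 10000 and 2 UMIs) were set apart, 1504 in all. Keeping such barcodes raised the C1q-positive Lyz2-low cells to 110 in Lag3KO_CD45 and to 79 and 75 in WT_CD45. Counts were summed per class and library with at least 10 cells and tested in edgeR 4.0.16 (R 4.3.3), with DESeq2 1.42.0 as an alternative; permutations and intervals used scipy 1.17.1 under Python 3.11.15. Calls have a Benjamini-Hochberg adjusted p under 0.05. The methods were tested on simulated data. Alternatives were other cuts, filters and scalings, leaving out each library, and the microglia-like clusters alone, which was added after the data were seen. The text names the 9 genes, Lag3, the 2 genes of each list with the smallest p per direction among those called, and the 10 genes most like the 9; a gene that these rules name is not reported here. The library totals, 4585251 to 18940186 UMIs, set the precision, and intervals cover counting error only.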

Additional observations from a re-analysis of the deposited data

Results flagged for a closer look

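In C1q-positive Lyz2-low cells the genotype difference of Tmsb10, which encodes an actin-binding thymosin, itself differed between the sorts, by 1.80 ± 0.32 on the log2 scale (SE, edgeR adjusted p = 0.0203). Tmsb10 had 684 and 671 CPM in Lag3KO_CD4, against 502 and 515 CPM in WT_CD4, and 857 CPM in Lag3KO_CD45, against 2209.7 and 2122 CPM in WT_CD45. Lag3KO_CD45 is 1 library, and sort, sex and processing cannot be told apart. The call was lost by DESeq2 (1.79, adjusted p = 0.378), with Lyz2 under 40 per 10000 (1.58, edgeR adjusted p = 0.0604), with mixed barcodes kept (0.32, 0.928) and in the microglia-like clusters alone (0.76, 0.786), which hold 24 of 31 cells of Lag3KO_CD45, against 7 of 17 and 13 of 24 of WT_CD45. Without the library labelled WT_CD45 2 it was 1.79 (edgeR adjusted p = 0.0087).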

How the results depend on the processing

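The 9 members kept their direction and their call against Lyz2-high macrophages in 170 of 170 recomputed values and against plasmacytoid dendritic cells in 116 of 116; Fcrls was too low to be tested against macrophages with no library block, which left 8 members called, and against dendritic cells with Lyz2 under 10. In the CD4 genotype comparison 134 of 144 values kept both, and the other 10 were newly past the threshold, 2 of them in microglia-like clusters. The members were left out of the genes used for clustering. Limiting the cells to those clusters was decided after the data were seen, so calls there are a description. The cause of the changes below was not tested. The class comparisons were paired within library. Libraries could not be paired across genotype or sort, because the labels give no shared replicate numbers.

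Counts of called genes moved as follows. Against Lyz2-high macrophages (1321), C1q-positive macrophages alone gave 785. Against plasmacytoid dendritic cells (1297), DESeq2 gave 632, Lyz2 under 10 gave 653, mixed barcodes kept 2184, all barcodes 1983, and leaving out a library 811 to 1154. For genotype over both sorts (5), DESeq2 gave 1, no filter 10, Lyz2 under 40 gave 3, all barcodes 3, microglia-like clusters 16, and leaving out a library 1 to 8; members called (1) were 0 by DESeq2, 4 in microglia-like clusters and 0 to 1 leaving out a library. In the CD4 libraries (8), DESeq2 gave 1, no filter 16, and leaving out a library 5 to 17. In the CD45 libraries (5), DESeq2 gave 0, no filter 16, Lyz2 under 10 gave 35, Lyz2 under 40 gave 1, all barcodes 9, and leaving out a library 5 to 17. For the difference between sorts (1), DESeq2 gave 0, no filter 14, Lyz2 under 10 gave 28, Lyz2 under 40 gave 5, mixed barcodes kept 2, all barcodes 7, microglia-like clusters 0, and leaving out a library 2 to 12. In Lyz2-high macrophages (0), no filter gave 59 and leaving out a library 0 to 2. For the difference between classes (0), no filter gave 3, Lyz2 under 10 gave 1, all barcodes 1, microglia-like clusters 2, and leaving out a library 0 to 2.

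Directions turned for members that were not called. Over both sorts, Tmem119 was 0.010 and Csf1r 0.014 with mixed barcodes kept; Cx3cr1 was 0.021 with no filter, 0.019 with Lyz2 under 40 and 0.034 with mixed barcodes kept; Olfml3 was 0.011 with no filter and 0.021 over all barcodes. Leaving out a library gave -0.32 to 0.070 for Tmem119, -0.40 to 0.17 for Cx3cr1, -0.37 to 0.090 for Csf1r and -0.52 to 0.20 for Olfml3. In the CD45 libraries, C1q at 30 or more gave -0.0033 for P2ry12, -0.017 for Gpr34 and -0.068 for Siglech, and mixed barcodes kept gave -0.055 for Gpr34. Microglia-like clusters there gave -0.76 for P2ry12, -0.30 for Tmem119, -0.93 for Gpr34, -1.10 for Siglech, -0.47 for Sparc and -0.32 for Csf1r. Leaving out a library gave -0.30 to 0.83 for P2ry12, -0.31 to 0.92 for Gpr34, -0.37 to 1.06 for Siglech and -0.46 to 0.079 for Fcrls. Between sorts, microglia-like clusters gave 0.014 for Tmem119 and 0.35 for Siglech. In Lyz2-high macrophages leaving out a library gave -0.84 to 0.65 for Tmem119, -0.39 to 1.14 for Sparc and -0.16 to 0.34 for Cx3cr1.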
